A study of Homo sapiens with 12 samples.

Results

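H929 is an established line of human myeloma, a malignancy of plasma cells. The account below compares the controls of a pair of delivery methods used on it. In the first control, cells were infected to carry a short hairpin RNA directed at green fluorescent protein (shGFP), and GFP-positive cells were collected by flow sorting, so that the named target of the hairpin is also the sorting marker. In the second, cells were transfected with cel-miR-67, a microRNA of the worm Caenorhabditis elegans that serves as a non-targeting control, and no sorting is named for it. Neither RNA is directed at a human gene, so the comparison holds delivery, sorting and culture together, and these cannot be told apart. The type of vector, the time from delivery to harvest and the number of cultures behind each group are not given in the sources used here. Each group had 3 arrays, 6 of the 12 in the series, and the other 6 held shBCL9 (a hairpin against BCL9, infected and sorted in the same way) and transfected hsa-miR-30a/b/c/d/e (miR-30 below). The members were every gene with a probe set of 1 gene symbol: 19775 genes, of which 14725 passed a filter on dim probe sets and were tested.

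Several programmes that cells use to balance growth against stress recur below. The integrated stress response slows general translation and raises the transcription factor ATF4, which switches on genes for amino acid supply and, when stress persists, for cell death. The p53 protein responds to damage and to nucleolar stress by inducing CDKN1A, an inhibitor of cyclin-dependent kinases, and several death receptors and BCL2-family proteins. The retinoblastoma protein holds back the E2F factors, which drive the genes of DNA replication when cells enter S phase, and MYC drives ribosome production. Foreign nucleic acid is read by cytosolic and endosomal sensors whose signals end in the interferon-stimulated genes. Plasma cells secrete large amounts of antibody and keep a high load of endoplasmic reticulum (ER) chaperones.

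The promoters of members of 3 of these groups carry the short motifs that their regulators are known to bind. They are examples, chosen after the search as the largest differences in the list's main direction among called members that hold the motif. The lists are those in which it was more frequent than among all tested genes by the widest margins. Each line gives a window of 60 bases around the motif, within the 250 bases upstream of the annotated transcription start, 5′ to 3′ on the gene's strand, from RefSeq on GRCh38.p14, with the motif in capitals. The first set is from targets of ATF4, whose motif was searched as TGATGNAA on both strands, so that TTGCATCA is its reverse complement. CHAC1 degrades glutathione, ASNS makes asparagine, and AARS1 charges the alanine transfer RNA; the windows lie at chr15:40953236-40953295 (plus strand), chr7:97872443-97872502 (minus) and chr16:70289660-70289719 (minus). The motif begins 209, 68 and 187 bases before the start in that order.
CHAC1: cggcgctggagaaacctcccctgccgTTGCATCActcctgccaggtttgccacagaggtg
ASNS: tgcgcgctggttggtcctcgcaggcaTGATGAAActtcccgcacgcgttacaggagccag
AARS1: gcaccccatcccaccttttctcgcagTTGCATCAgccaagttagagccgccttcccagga

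The second set is from genes of the G1/S transition, where E2F sites were searched as TTTGGCGC, TTTCCCGC and TTTCGCGC on both strands. GINS2, MCM7 and MCM3 are parts of the replicative helicase and CDC25A is the phosphatase that activates cyclin-dependent kinases at S-phase entry. Their windows are chr16:85688955-85689014, chr7:100101398-100101457, chr6:52284883-52284942 and chr3:48188428-48188487, all on the minus strand, with the motif beginning 31, 9, 174 and 44 bases before the start.
GINS2: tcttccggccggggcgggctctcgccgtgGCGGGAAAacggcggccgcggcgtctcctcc
MCM7: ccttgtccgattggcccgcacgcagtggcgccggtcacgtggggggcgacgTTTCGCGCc
MCM3: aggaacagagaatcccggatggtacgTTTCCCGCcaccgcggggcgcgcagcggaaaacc
CDC25A: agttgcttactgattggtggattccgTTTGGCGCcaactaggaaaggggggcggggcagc

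The third set is from interferon-stimulated genes, whose response element was searched on both strands as GAAA, any 2 bases and GAAA again. IFITM1 and BST2 are membrane proteins that restrict enveloped viruses, and IFI27 and EPSTI1 are induced by interferon. Their windows are chr11:313975-314034 (plus), chr14:94110616-94110675 (plus), chr13:42992257-42992316 (minus) and chr19:17405720-17405779 (minus), and IFI27 holds the element on both strands. The element nearest the start begins 40, 95, 50 and 124 bases before it.
IFITM1: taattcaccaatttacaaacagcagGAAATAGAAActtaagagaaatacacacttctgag
IFI27: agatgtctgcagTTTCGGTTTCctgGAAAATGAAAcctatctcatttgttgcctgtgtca
EPSTI1: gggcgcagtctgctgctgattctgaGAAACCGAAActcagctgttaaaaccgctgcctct
BST2: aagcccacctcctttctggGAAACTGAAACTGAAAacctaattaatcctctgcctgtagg

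In the 250 bases upstream of the start, the ATF4 motif was present in 4 of the 24 ATF4 targets with a promoter entry (16.7%) and in 1.70% of the 11677 tested genes with an entry. E2F motifs were present in 13 of 29 G1/S genes (44.8%), against 3.55% of tested genes. The interferon element was present in 17 of 23 interferon-stimulated genes (73.9%), against 2.23% of tested genes. The E-box CACGTG, bound by MYC and other factors, was present in 2 of 20 ribosome biogenesis genes, against 8.61% of tested genes. Over all 27305 promoters of the table, the shares were 3.19%, 2.38%, 3.07% and 6.49% in the same order. Holding a motif and being called did not always go together. FGF21 held the ATF4 motif and was not called, whereas CTH, DDIT3, TRIB3 and SESN2 lacked it and were called lower. LGALS3BP held the interferon element and was called higher, whereas SAMD9L and XAF1 lacked it and had negative differences. A match describes these letters and does not show binding.

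The values are log2 intensities, and a difference is shGFP minus cel-miR-67 on that scale unless another is named. Over all tested genes, arrays of a group correlated at 0.997 to 0.998, whereas shGFP and cel-miR-67 arrays correlated at 0.949 to 0.953. The defining markers of plasma cells were present: all 10 lay above the filter level (the 40th percentile of each array, 4.86 to 4.95) on all 6 arrays, with mean levels of 12.26 to 12.30 in shGFP and 11.93 to 11.96 in cel-miR-67. Measures of RNA quality moved with the groups. The ACTB 3' probe set exceeded the 5' one by 1.17, 1.36 and 1.36 in shGFP and by 2.205, 2.204 and 2.057 in cel-miR-67. A larger gap is the usual sign of more degraded or less fully copied RNA, and the groups did not overlap, with a p of 0.1 by a two-sided exact permutation test, which cannot go lower with 3 arrays a group. The GAPDH gap was 0.136 ± 0.019 and 0.179 ± 0.036 (SD, n = 3 each), with overlapping arrays and an exact permutation p of 0.3. The 18S probe sets read 12.38 ± 0.07 and 12.50 ± 0.05, without overlap, and spike-ins added before labelling (poly-A) read 7.15 ± 0.17 and 7.52 ± 0.07, also without overlap (exact permutation p of 0.1 each). The part of these measures in the results was not tested beyond a fit with each as a covariate, given below.

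**Figure D1:**
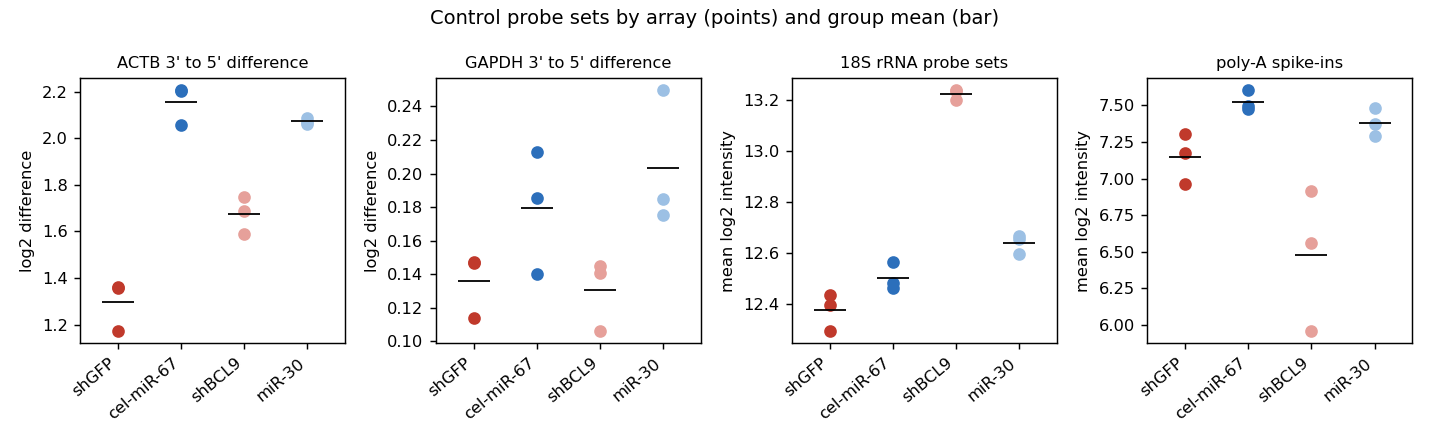
Points are single arrays and give 4 measures of RNA quality in each of the 4 groups, as log2 differences (ACTB and GAPDH, 3' minus 5') or log2 levels (18S and poly-A spike-ins). The ACTB gap is 1.17 to 1.36 on the 3 shGFP arrays and 2.06 to 2.21 on the 3 cel-miR-67 arrays.

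The infected and the transfected control differed in most of the genes tested. At a limma adjusted p under 0.05, 9044 of 14725 genes (61.4%) were called, of which 4181 (28.4%) were higher in shGFP and 4863 (33.0%) lower. For 9739 genes (66.1%) all arrays of one control lay above all arrays of the other. At least 2-fold differences were found for 1545 genes (10.5%), with 601 higher and 944 lower in shGFP. With replicates this close, small differences pass, so a count of called members is read below against 61.4%, 28.4% and 33.0%. The labels do not tell whether replicates were separate cultures, so the p-values reflect array-to-array spread that could be purely technical.

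The count depended on the ACTB gap, which is nearly tied to the groups. With it as a covariate, 1658 genes (11.3%) were called, 943 (6.40%) higher and 715 (4.86%) lower. Counts of members called in this fit are read below against these shares. Of the 1658 genes, 1545 were among the 9044, a set that differs from the equally many genes at least 2-fold apart. Over all 9044 genes the fitted differences kept a median of 0.863 of their size and 7474 kept their sign, so that many small differences turned. Those of the 1545 genes at least 2-fold apart kept a median of 0.925 of their size, 1527 kept their sign, and 905 stayed called. The median standard error over the 9044 genes went from 0.066 to 0.300. With the 18S signal as covariate 7209 genes were called, and with the poly-A spike-ins 8283.

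Some gene groups were mostly lower in the infected and sorted cells, some were mostly lower in the transfected cells, and others were divided or little called. Stress-response genes (ATF4 targets, p53 targets) and interferon-stimulated genes were mostly lower in shGFP. Genes of DNA replication, mitosis and ribosome production were mostly higher. Of the 38 lists described, the largest shares called in 1 direction were 32 of 33 for G1/S and DNA replication, 22 of 23 for ribosome biogenesis and MYC-linked growth, 27 of 29 for ATF4 targets and 20 of 22 for p53 targets. The median over all tested genes was 0.02.

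**Figure D2:**
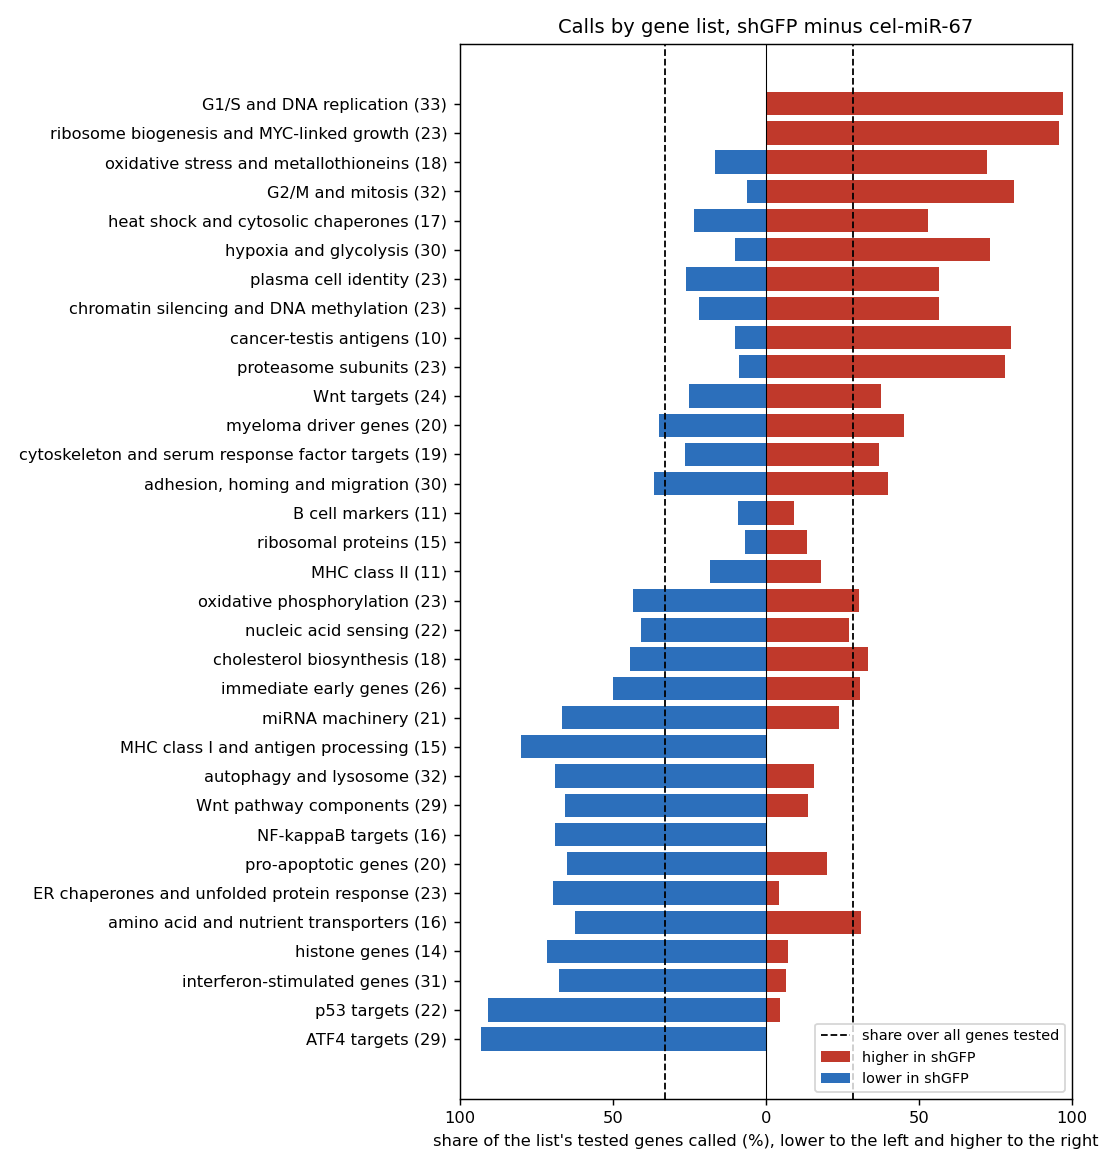
Bars give, for each gene list drawn, the percent of tested members called higher in shGFP (right) and lower in shGFP (left). The lines mark the same over all tested genes, 28.4% and 33.0%. Lists with few tested members (anti-apoptotic, T and NK cell, myeloid, erythroid, and stromal and epithelial) are not drawn. G1/S genes reach 97.0% higher and ATF4 targets 93.1% lower.

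The gene with the largest fitted difference by the rule for named genes, INHBE, is an activin subunit induced by ATF4. It lay at 4.61, 4.70 and 3.95 in the shGFP arrays and at 11.10, 11.15 and 11.04 in cel-miR-67. The difference was -6.67 (SE 0.145), or 102-fold, with an adjusted p of 1.65e-12. The shGFP mean was under the filter level, where array values no longer follow abundance closely; setting it at that level gives at least 72.7-fold. ATF3, a stress-induced transcription factor, read 6.67, 6.44 and 6.61 against 10.36, 10.46 and 10.51, a 14.7-fold lower level in shGFP with an adjusted p of 2.37e-13. In both genes every shGFP array lay far below every cel-miR-67 array.

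Of the 29 targets of ATF4 tested, 27 were lower in shGFP, 0 were higher and 2 were not called, with a median of -1.23. TRIB3, a pseudokinase that feeds back on the stress response, read 8.57, 8.53 and 8.54 in shGFP and 11.83, 11.87 and 11.83 in cel-miR-67 (9.81-fold lower, adjusted p 3.92e-14). DDIT3, the death-promoting factor CHOP, read 7.82, 7.59 and 7.88 against 11.26, 11.32 and 11.36 (11.7-fold lower, adjusted p 7.23e-13). The 3 arrays of each group lay close together and the groups were far apart for both. CTH, which makes cysteine, was 12.5-fold lower and SESN2, which restrains the growth kinase mTORC1, 8.27-fold lower. CHAC1 and ASNS, whose promoters are printed above, differed by -2.82 and -1.69, AARS1 by -0.92, and ATF4 itself by -0.85. NUPR1, a chromatin protein of the stress response, and FGF21, a secreted hormone, were the members not called, at 0.07 (adjusted p 0.502) and 0.01 (adjusted p 0.842). With the ACTB covariate 17 of the 29 were called, all lower, and the median was -0.97.

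Amino acid transporters, several of them under ATF4, were divided: 10 of 16 were lower and 5 higher in shGFP. SLC7A11, the cystine carrier, read 6.63, 6.73 and 6.76 in shGFP and 10.05, 10.02 and 9.99 in cel-miR-67, 9.94-fold lower. SLC3A2, its partner chain, differed by -1.44 and SLC38A2, a glutamine carrier, by -1.26. SLC19A1, the folate carrier, was higher by 1.49. Under the ACTB covariate 4 were called lower and 1 higher.

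ER chaperones and genes of the unfolded protein response were lower in 16 of 23 cases, with 1 higher and a median of -0.48. ERN1, the ER stress sensor IRE1, read 9.997, 10.17 and 10.21 in shGFP and 12.68, 12.60 and 12.52 in cel-miR-67 (5.56-fold lower), with another probe set at -0.25. HSPA5, the main ER chaperone, differed by -0.83. XBP1, the factor whose messenger IRE1 splices, was the member called higher, by 1.01. For PDIA3 (-1.28), a disulphide isomerase, and SEL1L (-0.88), of ER-associated degradation, another probe set of the gene read 0.00 and 0.36. After fitting the ACTB gap, 6 members were called lower and 0 higher.

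Targets of p53 were lower in shGFP in 20 of 22 cases, with 1 higher (CCNG1, a cyclin, 0.16) and a median of -1.001. CDKN1A read 8.57, 8.48 and 8.56 in shGFP and 11.84, 11.82 and 11.93 in cel-miR-67, a difference of -3.32 (SE 0.0553, adjusted p 2.37e-13). No array of the infected control came near the transfected ones. DDB2, a DNA damage sensor, differed by -1.62, and MDM2, the ligase that degrades p53, by -0.49. POLH, a translesion polymerase, was not called, at 0.01. SESN2 belongs to this list and to the ATF4 list. In the ACTB-adjusted fit 10 of the 22 were called, all lower.

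Among pro-apoptotic genes 13 of 20 were lower and 4 higher in shGFP. BAX, which permeabilises mitochondria, read 7.54, 7.30 and 7.59 against 9.72, 9.75 and 9.81 (4.86-fold lower). The p53-induced PMAIP1, of the BCL2 family, and death receptor FAS differed by -2.13 and -2.15. TNFRSF10B, the death receptor DR5, differed by -2.59 in its brightest probe set, while another read 0.33. Anti-apoptotic genes were also lower, in 7 of 9 cases with 1 higher. BCL2 read 5.78, 6.21 and 6.24 in shGFP and 8.61, 8.52 and 8.51 in cel-miR-67 (5.56-fold lower, with another probe set at -0.02), BIRC2 differed by -0.74 and BCL2L2 by -0.78. MCL1, the survival factor on which many myeloma lines depend, differed by -0.72 in its brightest probe set, with another at 0.28. Allowing for the ACTB gap, 4 pro-apoptotic and 1 anti-apoptotic genes were called lower.

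Replication genes showed the opposite direction. Of 33 genes of the G1/S transition and DNA replication, 32 were higher in shGFP, 0 lower, and E2F1 was not called (0.23, adjusted p 0.0891), with a median of 1.12. MCM2, a subunit of the helicase that licenses origins, read 10.64, 10.60 and 10.67 in shGFP and 8.27, 8.21 and 8.25 in cel-miR-67. It was 5.25-fold higher, with an adjusted p of 8.13e-13. The other helicase subunits MCM4, MCM7 and MCM3 were higher by 2.34, 2.00 and 1.72, GINS2 by 2.18, and UNG, which removes uracil from DNA, by 2.41. CDC25A was higher by 1.45. PRIM1 (0.15), TK1 (0.27) and PCNA (0.29) were at the low end of the called members, so the range within the list was wide. With the ACTB covariate 19 of the 33 were called, all higher, and the median was 1.13.

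**Figure D3:**
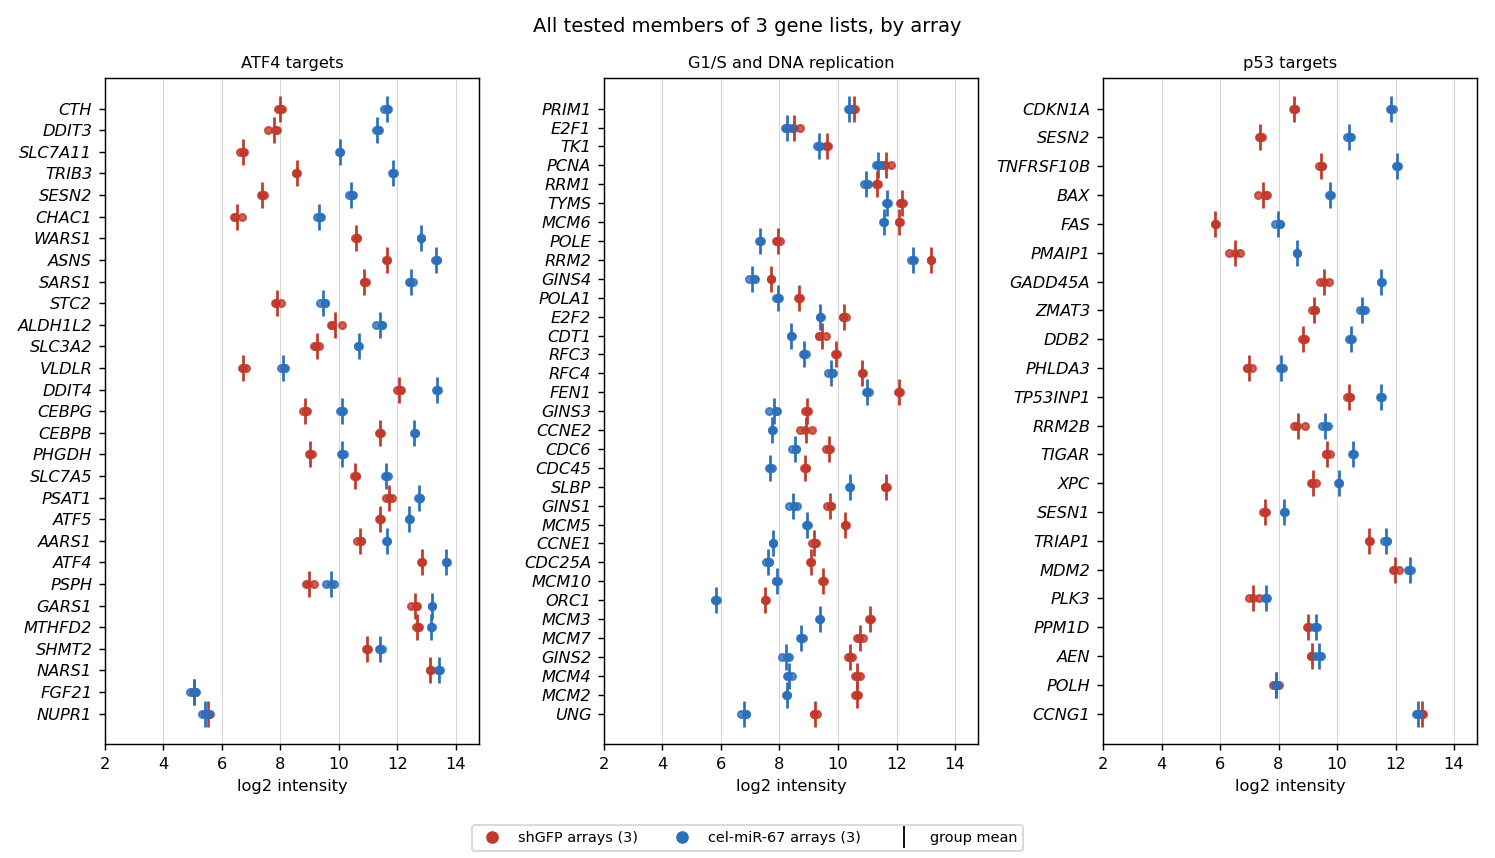
Points are the log2 levels of every tested ATF4 target, G1/S and DNA replication gene and p53 target on single shGFP and cel-miR-67 arrays. Ticks mark the group means. The differences of these means (shGFP minus cel-miR-67) run from -3.64 to 0.07 for ATF4 targets and from 0.15 to 2.41 for G1/S genes.

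Mitotic genes were less uniform: 26 of 32 were higher, 2 lower and 4 not called, with a median of 0.61. CCNB1, the mitotic cyclin, read 11.95, 11.99 and 12.05 in shGFP and 10.56, 10.66 and 10.63 in cel-miR-67 (2.61-fold higher). KIF20A, a kinesin of cytokinesis, CDC20, the activator of the anaphase-promoting complex, and the checkpoint kinase BUB1B were higher by 1.36, 1.21 and 0.87. CDK1 and KIF2C were lower, by differences of -0.25 and -0.17. Under the ACTB covariate 7 were called higher and 0 lower.

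Ribosome production followed replication. MYC read 9.10, 9.05 and 9.17 in shGFP and 7.19, 7.25 and 7.10 in cel-miR-67 (3.80-fold higher, adjusted p 7.28e-11). Of 23 genes of ribosome biogenesis and MYC-linked growth, 22 were higher, 0 lower and GAR1, of the H/ACA particles that modify ribosomal RNA, was not called at 0.09. TFRC, the transferrin receptor, read 12.96, 13.02 and 13.04 against 10.88, 10.92 and 10.84 (4.37-fold higher, with another probe set at 0.26). NOP16 and DDX10, of pre-ribosome assembly, were higher by 2.11 and 1.46, and SRM, which makes spermidine, by 1.96. The ribosomal proteins themselves, at 14.24 to 14.25 in shGFP and 14.23 to 14.24 in cel-miR-67 on average, were called in 3 of 15 cases. RPS3 and RPL8 were higher by 0.15 and 0.11 and RPS19 lower by -0.12, with another probe set of RPS19 at 0.50. After fitting the ACTB gap, 15 of the 23 biogenesis genes were called, all higher, and 0 ribosomal proteins.

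Histone genes did not follow the replication genes. Of 14 tested, 10 were lower in shGFP and 1 higher, with a median of -0.57. The arrays copy RNA from its poly(A) tail, which most replication-dependent histone messengers lack. H1-10, a linker histone, differed by -1.77, and the core histones H2AC6 and H2BC5 by -1.73 and -1.35. H2AX, the variant phosphorylated at DNA breaks, was higher by 0.88. In the ACTB-adjusted fit 2 were called lower and 0 higher.

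Factors of chromatin silencing and DNA methylation were higher in 13 of 23 cases and lower in 5. UHRF1, which brings the maintenance methyltransferase to newly copied DNA, was higher by 2.36 and that enzyme, DNMT1, by 0.95. SUV39H2, a histone H3 methyltransferase, was higher by 1.41. PPHLN1, of the HUSH silencing complex, was higher by 0.69, with another probe set at -0.17. Allowing for the ACTB gap, 5 were called higher and 0 lower.

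Interferon-stimulated genes were lower in the infected cells. Of 41 listed, 39 were on the array and 31 were tested; 21 were lower in shGFP, 2 higher and 8 not called, with a median of -0.65. IFITM1 read 6.46, 6.22 and 6.31 in shGFP and 10.01, 10.03 and 10.07 in cel-miR-67 (a difference of -3.70, adjusted p 3.49e-13). IFI27 read 5.24, 5.13 and 4.99 against 7.81, 7.79 and 7.95 (6.64-fold lower). Both groups were tight and did not overlap in either gene. BST2, EPSTI1 and IRF9, the DNA-binding part of the interferon-activated complex, differed by -1.70, -1.86 and -1.59, and MX1, a GTPase that blocks viral nucleocapsids, by -1.26. PARP9 and LGALS3BP were the members called higher, by 0.45 and 0.21, LGALS3BP with probe sets of both signs. IFIT2 and IFIT3, which bind viral RNA ends, were not called, at 0.00 and -0.04. With the ACTB covariate 10 of the 31 were called, all lower.

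The sensors were divided, with 9 of 22 lower, 6 higher and 7 not called. Differences in the list ran from -1.56 to 1.38, and 3 lower and 1 higher members were called at least 2-fold apart. IFIH1, the sensor of long double-stranded RNA, differed by -1.56, IFI16, a DNA sensor, by -0.64, and the retroviral restriction factors APOBEC3G and TRIM5 by -1.43 and -1.12. Not called were ADAR (-0.10), APOBEC3F (0.06), DHX58 (-0.17), IKBKE (0.08), RIGI (0.04), SAMHD1 (-0.04) and TLR9 (-0.10). Of these, RIGI and SAMHD1 had probe sets of both signs (-0.19 to 0.04 and -0.04 to 0.57). Under the ACTB covariate 2 sensors were called lower and 1 higher.

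Antigen presentation by MHC class I was lower in 12 of 15 cases and higher in 0, by small amounts, with a median of -0.25. PSMB9 of the immunoproteasome, the peptide transporter TAP1, the trimming enzyme ERAP2 and HLA-B differed by -0.70, -0.74, -0.80 and -0.44. MHC class II genes were called in 4 of 11 cases. CD74, the invariant chain, and HLA-DRA were higher by 0.28 and 0.29, and HLA-DPB1 and HLA-DOB differed by -0.35 and -0.41, with another HLA-DOB probe set at 0.30. After fitting the ACTB gap, 2 class I genes and 1 class II gene were called, all lower.

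Targets of NF-kappaB were lower in 11 of 16 cases and higher in 0. IRF1, RELB and CCL4 differed by -1.35, -1.33 and -1.02, and IER3 by -0.64. Of the 26 immediate early genes, which respond within minutes to growth factors and stress, 13 were lower and 8 higher. KLF2 was higher by 1.25, whereas ATF3 (above), SPRY4 (-1.32) and KLF6 (-1.14) were lower, with another KLF6 probe set at 0.08. In the ACTB-adjusted fit 2 NF-kappaB targets were called lower, and 4 immediate early genes each way.

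Protein folding in the cytosol, redox defence and glycolysis were higher in shGFP. Of 17 heat shock genes and cytosolic chaperones 9 were higher and 4 lower. HSPH1, which recycles HSP70, read 10.29, 10.22 and 10.37 in shGFP and 8.18, 8.36 and 8.20 in cel-miR-67 (4.13-fold higher). HSP90AB1 was higher by 1.90 and its cochaperones FKBP4 and DNAJA1 by 1.72 and 1.53. Of 18 genes of oxidative stress and metallothioneins, 13 were higher and 3 lower. PRDX1, a peroxidase, read 12.32, 12.29 and 12.25 against 10.16, 10.24 and 10.29 (4.16-fold higher), and the metal-binding MT1X, MT2A and MT1H were higher by 1.92, 1.88 and 1.40. Metallothionein genes are near-identical copies, so their probe sets may share signal. Allowing for the ACTB gap, 6 chaperones and 7 redox genes were called, all higher.

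Of 30 genes of hypoxia and glycolysis 22 were higher and 3 lower. NDRG1, induced by low oxygen, was higher by 1.83, and the glycolytic enzymes TPI1 and GPI by 1.52 and 1.19. VEGFA, the vascular growth factor, was lower by a difference of -1.34. Oxidative phosphorylation was divided, with 7 of 23 higher and 10 lower. NDUFV2 and NDUFS3 of complex I were higher by 1.21 and 0.95, SDHC of complex II differed by -1.04, and COX5A by -0.26 with another probe set at 0.54. Cholesterol biosynthesis had 6 of 18 higher and 8 lower. The called members with the smallest adjusted p, DHCR7, NSDHL, INSIG1 and SQLE, were higher by 0.86, 0.82, 0.79 and 0.70. With the ACTB covariate 9 hypoxia and glycolysis genes were called higher and 1 lower, 1 respiratory gene each way, and 2 cholesterol genes higher and 1 lower.

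Proteasome subunits were higher in 18 of 23 cases and lower in 2, with a median of 0.26. PSMB6, PSMD1 and PSMD2 were higher by 1.17, 1.17 and 0.97, and PSMA3 by 0.74 with another probe set at -0.24. Genes of autophagy and lysosomes were lower in 22 of 32 cases and higher in 5, with a median of -0.29. WIPI1, which marks forming autophagosomes, read 9.80, 9.93 and 10.09 in shGFP and 12.27, 12.31 and 12.28 in cel-miR-67 (5.10-fold lower). MAP1LC3B, the autophagosome protein LC3, and TFEB, the regulator of lysosome genes, differed by -1.43 and -1.79, and the cholesterol exporter NPC1 by -1.24 with another probe set at 0.15. Under the ACTB covariate 2 proteasome genes were called higher and 5 autophagy genes lower.

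Plasma cell genes stayed high in both groups, with 13 of 23 higher and 6 lower in shGFP. PIM2, a survival kinase, was higher by 1.42, SEL1L3 by 0.99, LAX1, an adaptor of antigen receptor signalling, by 0.85, and IRF4, on which myeloma cells depend, by 0.52. SLAMF7, the surface target of an antibody drug, differed by -0.71. JCHAIN, which links antibody polymers, read 0.13 (adjusted p 0.246), and CD27, ITM2C and TNFRSF13B were not called at -0.0049, 0.06 and 0.06. After fitting the ACTB gap, 4 were called higher and 0 lower.

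Genes altered in myeloma were called higher in 9 of 20 cases and lower in 7. FGFR3, a receptor kinase activated by translocation in a subset of myelomas, read 10.76, 10.70 and 10.72 in shGFP and 8.60, 8.60 and 8.66 in cel-miR-67 (4.30-fold higher). MYBL2, a regulator of mitotic genes, was higher by 1.27, and the cyclin CCND1 differed by -1.14. MAF was not called at 0.07, IKZF3 at -0.06 and NSD2 at 0.04, but probe sets of NSD2 ran from -0.65 to 0.97 and those of IKZF3 from -0.06 to 0.73. BCL9, the gene that the study targets and neither control is directed at, was 7.88 ± 0.01 in shGFP and 7.82 ± 0.04 in cel-miR-67 (SD, n = 3 each). The difference of 0.06 had a 95% interval of -0.084 to 0.21 and an adjusted p of 0.438 in limma. Its exact permutation p was 0.1, the lowest that 3 arrays a group can give. In the ACTB-adjusted fit 4 genes of the list were called higher and 0 lower.

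BCL9 is a coactivator of beta-catenin. Of 24 Wnt targets 9 were higher and 6 lower: ID2, an inhibitor of differentiation factors, was higher by 2.43, and SOX4, a transcription factor, differed by -2.63. Of 29 Wnt pathway components 19 were lower and 4 higher. The receptor FZD2 differed by -1.65, CSNK1E, a kinase of the pathway, was higher by 1.01, and GSK3B (-0.97) and BTRC (-0.87), of beta-catenin turnover, had other probe sets at 0.04 and 0.26. The machinery that a transfected microRNA would use was lower in 14 of 21 cases and higher in 5. DDX6, PAN2 and XRN1, which repress and degrade microRNA targets, differed by -1.88, -0.99 and -1.02, and HSP90AA1, which helps load Argonaute, was higher by 1.11. Allowing for the ACTB gap, 5 Wnt targets were called higher and 2 lower, 1 component higher and 2 lower, and 2 genes of the microRNA machinery higher and 1 lower, where the median of that machinery went from -0.25 to 0.01.

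Adhesion, homing and migration genes were divided, with 12 of 30 higher and 11 lower. ANXA1, an anti-inflammatory annexin, was 9.02-fold lower, ICAM3 differed by -1.47, and NCAM1 (CD56) by -1.04 with another probe set at 0.08. CCR1, a chemokine receptor, was higher by 1.31. Cytoskeletal genes were higher in 7 of 19 cases and lower in 5: TUBB, TUBB2A and ACTB were higher by 1.59, 0.83 and 0.86, and TPM1, a tropomyosin, differed by -1.25. The gap between the 3' and 5' probe sets of ACTB also differed between the groups, by -0.86, and its part in the ACTB value was not tested. Cancer-testis antigens, normally silent outside the germ line, were higher in 8 of 10 cases and lower in 1, with PAGE1 higher by 1.57, MAGEA12 by 0.72, CTAG2 by 0.41 and MAGEA1 by 0.28. With the ACTB covariate 3 adhesion genes were called each way, 2 cytoskeletal genes higher, and 1 cancer-testis antigen higher.

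Markers of other cells lay on average closer to the filter level than those of plasma cells, with exceptions such as KRT18 (8.55 in shGFP and 9.18 in cel-miR-67), COL1A1 (7.50 and 7.31) and HBB (7.50 and 7.02). Of the defining B cell markers 1 of 6 on the array (MS4A1) was under it on all 6 arrays, and the mean level of the markers was 5.32 to 5.44 in shGFP and 5.29 to 5.36 in cel-miR-67. For T and NK cells 2 of 7 were under it throughout (4.91 to 5.03 against 4.71 to 4.79), for myeloid cells 3 of 6 (4.80 to 4.92 against 4.65 to 4.71) and for stromal and epithelial cells 5 of 10 (5.09 to 5.18 against 5.29 to 5.36). Both erythroid markers on the array were above it (6.42 to 6.58 against 6.08 to 6.32). In the wider lists 2 of 11 B cell genes were called, FCRLA (-3.73) and BACH2 (0.49). Of 7 T and NK cell genes 3 were higher (PRF1, GNLY and CD3D, by 0.84, 0.65 and 0.27), and 0 of 2 myeloid genes were called by limma, 0 of which had an unadjusted p under 0.05. Of 5 erythroid genes 2 were higher (HBD by 1.45, HBB by 0.47). Of 9 stromal and epithelial genes 2 were higher, among them COL1A1 (0.19, another probe set at -0.06), and 4 lower, including KRT18 (-0.62) and MUC1 (-0.41). CDH1, the adhesion protein E-cadherin, read 3.34, 3.77 and 3.63 in shGFP and 6.04, 5.87 and 6.05 in cel-miR-67, so that only the transfected cells were above the filter level (at least 2.11-fold from that level). With the ACTB gap fitted, 1 B cell gene, 0 T and NK cell genes, 0 myeloid genes and 1 stromal or epithelial gene were called, all lower, and 1 erythroid gene higher.

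The genes with the largest differences are given next. By the rule for named genes, and by fitted differences that have no exact size where a group is under the filter level, the 15 furthest above in shGFP were SH3RF3-AS1 (4.98), ID1 (4.97), MACROD2 (4.66), AK4 (4.31), TEX19 (3.90), FCRL2 (3.59), GUSBP5 (3.29), HPDL (3.28), ABCG2 (3.06), MB (3.00), AMPD1 (2.92), OLIG1 (2.88), STS (2.84), LRP8 (2.81) and PECAM1 (2.79). ID1, an inhibitor of basic helix-loop-helix factors, read 11.45, 11.40 and 11.40 in shGFP and 6.31, 6.28 and 6.76 in cel-miR-67. MACROD2, a hydrolase of ADP-ribose marks, read 10.84, 10.87 and 10.88 against 6.13, 6.21 and 6.28. Arrays of a group lay close together for both, and the groups lay far apart. ABCG2 exports drugs, FCRL2 is an Fc receptor-like protein of B cells, TEX19 is a germ-line gene, MB is myoglobin, and AK4 is a mitochondrial adenylate kinase. The cel-miR-67 means of SH3RF3-AS1, AK4, GUSBP5 and OLIG1 lay under the filter level, so these are at least 14.3-, 18.9-, 4.76- and 4.74-fold higher when set against it, and their order among the 15 is not settled. Other probe sets of FCRL2 and AK4 read as low as 0.18 and 1.17.

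The 15 furthest below were INHBE (-6.67), RCAN2 (-5.98), TNC (-4.61), CSTA (-4.57), PLAC1 (-4.52), CNTN4 (-4.23), SDC2 (-4.17), SCN3B (-4.00), PTPRZ1 (-3.97), ATF3 (-3.87), PIERCE2 (-3.85), CHMP4C (-3.79), TMEM154 (-3.73), FCRLA (-3.73) and FAM171B (-3.73). RCAN2, an inhibitor of the phosphatase calcineurin, read 4.08, 3.63 and 4.13 in shGFP and 9.85, 9.98 and 9.94 in cel-miR-67. TNC is the matrix protein tenascin C, SDC2 a heparan sulphate proteoglycan, PLAC1 a placental gene, and SCN3B and PTPRZ1 are a sodium channel subunit and a receptor phosphatase known from neural tissue. Their shGFP means being under the filter level, RCAN2, TNC, CSTA, CNTN4, SCN3B, PTPRZ1 and CHMP4C were at least 32.2-, 19.0-, 7.17-, 4.82-, 9.08-, 3.87- and 11.97-fold lower in shGFP when set against it, and their order too is not settled.

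**Figure D4:**
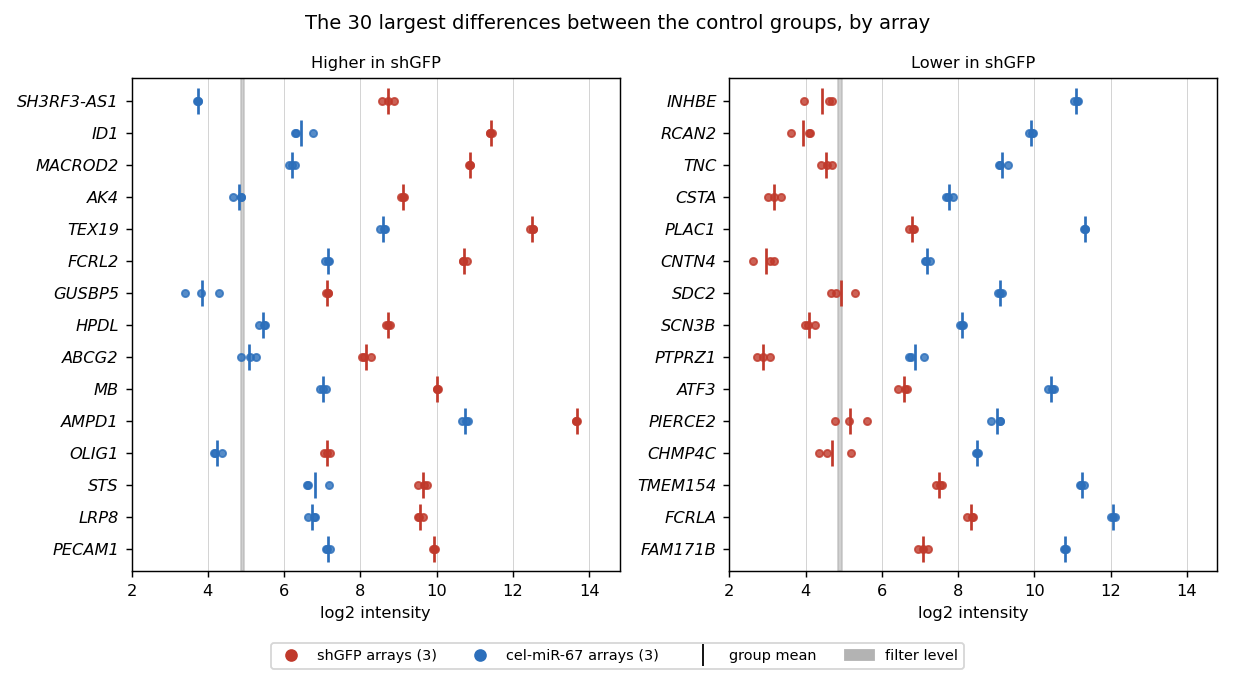
Points are the log2 levels of the 15 genes furthest above and the 15 furthest below in shGFP, on each of the 3 shGFP and 3 cel-miR-67 arrays. In every gene the groups lie apart, for example ID1 at 11.40 to 11.45 against 6.28 to 6.76.

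The other 6 arrays allow the same comparison of arms without sharing an array. They set shBCL9 against miR-30 and therefore also hold the effects of these treatments. In them 10444 genes (70.9%) were called, 5406 (36.7%) higher and 5038 (34.2%) lower in shBCL9. Of the genes called between the controls, 7338 were called with the same sign there, which is 81.1% of the control calls and 70.3% of the treated ones, and 328 with the opposite sign. All genes were fitted in 1 model and share its estimate of spread. Of the 1545 genes at least 2-fold apart between the controls, 1488 (96.3%) were called the same way and 36 had the opposite sign. Across the 14725 genes, which are not independent replicates, the differences of the arms correlated at 0.857 (Pearson), as a description.

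The groups described above kept their direction there in most cases. ATF4 targets were lower in the infected arm in 27 of 29 cases with 1 higher, p53 targets in 20 of 22 with 0 higher, and G1/S genes were higher in 31 of 33 with 0 lower. Ribosome biogenesis genes were higher in 22 of 23 with 0 lower. Mitotic and interferon-stimulated genes were called both ways: 15 of 32 mitotic genes were higher and 8 lower in shBCL9, and 11 of 31 interferon-stimulated genes were higher and 16 lower. The test of the difference between arm effects was passed by 26 of the 32 mitotic genes, 21 of the 31 interferon-stimulated genes, 14 of the 29 ATF4 targets, 11 of the 22 p53 targets, 8 of the 33 G1/S genes and 4 of the 23 ribosome biogenesis genes, against 3872 (26.3%) of all tested genes. The ACTB gap was 1.67 in shBCL9 and 2.07 in miR-30, and 18S read 13.23 and 12.64, a wider 18S difference than between the controls. With the 18S covariate 19 genes passed the test of the difference of arm effects, and with the ACTB covariate 1717. The 18S signal was 13.20 to 13.24 on the shBCL9 arrays and at most 12.67 on all others, so it is nearly tied to shBCL9. The median standard error of shBCL9 minus miR-30 went from 0.071 to 0.366 with 18S and to 0.161 with ACTB. The fall to 19 therefore cannot be told apart from a loss of precision.

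**Figure D5:**
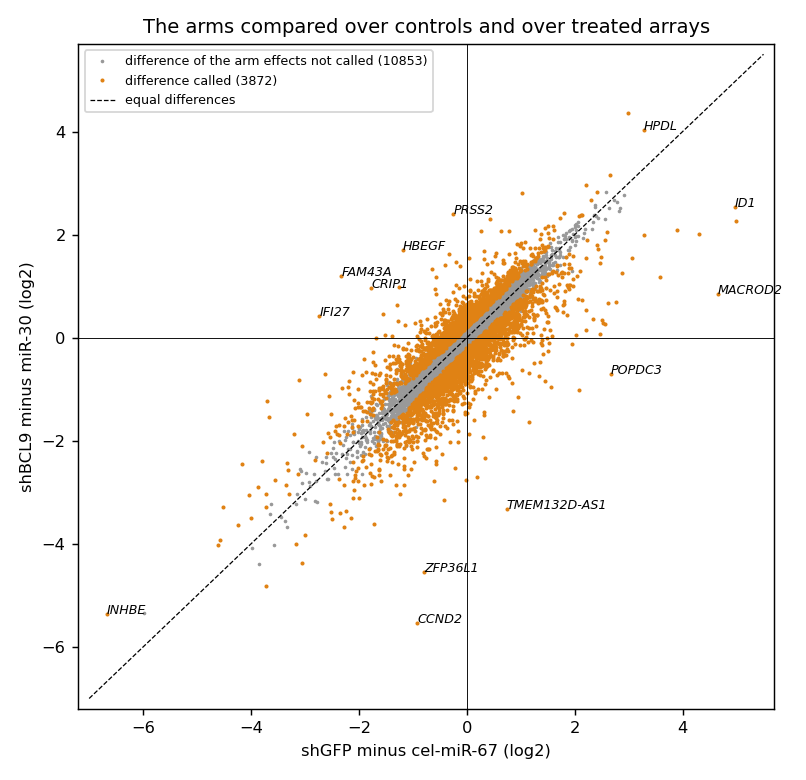
Each point is a tested gene, with the log2 difference of the controls (shGFP minus cel-miR-67) on the horizontal axis and that of the treated arrays (shBCL9 minus miR-30) on the vertical axis, and the line marks equal differences. The Pearson correlation across the 14725 genes is 0.857, and CCND2 lies far from the line, at -0.92 and -5.54.

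All 30 genes with the largest differences had the same sign and were called in the treated arrays. INHBE differed there by -5.35 and RCAN2 by -5.35. SH3RF3-AS1, ID1, MACROD2 and AK4 differed by 2.27, 2.53, 0.85 and 2.00, so that the gap between arms was smaller than between the controls. HPDL (4.03) and MB (4.36) had a larger gap there. AMPD1 (2.77), STS (2.53), LRP8 (2.47) and PECAM1 (2.64) did not pass the test of the difference between the arm effects, and neither did RCAN2, PTPRZ1 (-4.08) and PIERCE2 (-4.38).

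The genes whose arm effects differed most were of several kinds, some further apart in the treated arrays and some of opposite sign there. CCND2, a cyclin of G1, read 10.71, 10.72 and 10.67 in shGFP and 11.66, 11.61 and 11.60 in cel-miR-67 (-0.92) and differed by -5.54 in the treated arrays. ZFP36L1, which destabilises messengers, differed by -0.79 and -4.55, and TMEM132D-AS1 by 0.74 and -3.31. IFI27 went the other way, at -2.73 in the controls and 0.42 in the treated arrays, and so did FAM43A (-2.33 and 1.20), CRIP1 (-1.77 and 0.96) and the growth factor gene HBEGF (-1.18 and 1.69). POPDC3 differed by 2.68 and -0.70, its cel-miR-67 mean being under the filter level. PRSS2, a trypsinogen with near-identical copies in the genome, was not called in the controls (-0.25, adjusted p 0.114) and differed by 2.40 in the treated arrays.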

How the data were processed

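RNA of H929 was extracted with Trizol, labelled by 3' in vitro transcription and measured on arrays with 54675 probe sets (labels' protocols). The authors deposited log2 intensities made with RMA (affy package); this comes from the submitters' processing notes, which name no version. They ran from 2.16 to 14.88, with array medians of 5.46 to 5.53, and 30 to 82 values were exactly equal in any pair of the arrays compared. Precision is limited by the number of arrays.

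Platform annotation gave 41097 probe sets 1 symbol, 1801 several and 11777 none; 41043 matched current gene IDs (GRCh38.p14), with 0 symbols changed. Each gene was represented by its probe set with the highest mean over 12 arrays, and kept if above the 40th percentile in at least 3 arrays. Of 7012 genes with more than 1 probe set above that level, 2231 had probe sets of both signs, given above for named genes.

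limma 3.58.1 (lmFit, eBayes; R 4.3.3) fitted a mean per group to all 12 arrays, with Benjamini-Hochberg adjustment and a threshold of 0.05. The test of the difference of arm effects is (shGFP minus cel-miR-67) minus (shBCL9 minus miR-30). RNA quality measures and BCL9 had exact permutation tests, two-sided (smallest p 0.1). Named genes were BCL9, the 15 called genes furthest each way with arrays apart and probe sets of 1 sign, up to 4 called members of each of 38 lists by adjusted p, the 5 largest differences of arm effects each way, and uncalled members of the sensing, plasma cell and myeloma lists. Other members named, such as NUPR1, FGF21, E2F1, GAR1, MX1, CHAC1, ASNS, AARS1, UNG, GINS2, CDC25A and IRF4, were chosen after their values were seen. The members and lists were chosen with earlier results of these data known, and lists had no test. Promoter windows were searched with Python 3.11.15, and figures drawn with matplotlib 3.10.9. The fits were tested on simulated data. Alternatives covered the filter, probe sets, normalization, arrays in the fit, weights, variance model, replicate block, threshold, RNA quality covariates and leaving out each array.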

Additional observations from a re-analysis of the deposited data

Results flagged for a closer look

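The contrast of the arms had different sizes in the control and the treated arrays for 3872 genes by limma's test of the difference (shGFP minus cel-miR-67, less shBCL9 minus miR-30). Of the 39 genes given with both comparisons, 32 passed it, 14 with a positive and 18 with a negative difference of arm effects. In 7 the effects had opposite signs, in 20 they had the same sign and were larger in the control arrays, and in 5 they were larger in the treated arrays. Of the 39 genes, 30 were picked for a large difference between the controls, which favours larger effects there. Over all 3872 genes the arm effect was larger in size in the control arrays for 1510 and in the treated arrays for 2362.

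Among genes higher in shGFP than in cel-miR-67, the difference of arm effects was 3.81 for MACROD2, 2.72 for SH3RF3-AS1, 2.44 for ID1, 2.42 for FCRL2, 2.31 for AK4, 1.81 for TEX19, 1.63 for OLIG1, 1.505 for ABCG2 and 1.30 for GUSBP5, all larger in the controls. It was -0.74 for HPDL and -1.36 for MB, larger in the treated arrays.

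Among genes lower in shGFP it was -1.72 for SDC2, -1.40 for CHMP4C, -1.32 for INHBE, -1.24 for PLAC1, -0.97 for ATF3, -0.69 for TMEM154, -0.64 for CSTA, -0.60 for CNTN4, -0.58 for TNC, -0.51 for SCN3B and -0.45 for FAM171B, all larger in the controls. It was 1.10 for FCRLA, which was further apart in the treated arrays.

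The genes chosen for the size of this difference, besides MACROD2, were CCND2 (4.62), TMEM132D-AS1 (4.05), ZFP36L1 (3.76) and POPDC3 (3.37) on the positive side and FAM43A (-3.53), IFI27 (-3.15), HBEGF (-2.88), CRIP1 (-2.73) and PRSS2 (-2.64) on the negative side. The treated arrays hold the BCL9 hairpin and miR-30 besides the arm, and which of these moved each gene cannot be told apart in this contrast.

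Some of these sizes rest on group means under the filter level, where the values have no exact size. Setting such means at that level, a step chosen after seeing the data and without a test, gave -0.83 for INHBE, -0.39 for TNC, -0.69 for CSTA, -0.55 for CNTN4, -0.26 for SCN3B and -1.19 for CHMP4C. The same step gave 2.42 for SH3RF3-AS1, 2.24 for AK4, 1.13 for GUSBP5 and 1.40 for OLIG1. It gave 3.21 for TMEM132D-AS1, 2.17 for ZFP36L1, 2.16 for POPDC3 and -2.52 for PRSS2.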

How the results depend on the processing

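The count of 9044 called genes stayed between 6880 (plain probe sets, of 11588 genes) and 9710 (array weights) under filters, normalizations, variance models and arrays in the fit, and between 8341 and 8804 when an array of the controls was left out. Testing every probe set gave 16547 calls (7971 higher, 8576 lower), 19107 in the treated arrays, 13164 the same way in both and 6663 for the difference of arm effects. At an adjusted p under 0.01 the last was 2183. Requiring 2-fold left 1545 (601 higher, 944 lower), 1783 in the treated arrays and 285 for the difference. The ACTB covariate left 1658 (943 higher, 715 lower), 5555 in the treated arrays, 1466 in both and 1717 for the difference. The 18S covariate left 1695, 1439 and 19 of the last 3, with the wider standard error given above. The difference of arm effects has no value with 6 arrays. With the replicate block 9108 genes were called, 8912 of them shared; deviations of same-numbered control arrays from their group means correlated across genes at 0.0023, 0.034 and -0.22, so the numbers were not taken to pair the arrays.

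Signs of some named genes turned, each at most 0.49 in size as reported. With the ACTB covariate these were ADAR 0.16, APOBEC3F -0.28, IKBKE -0.51, RIGI -1.18, SAMHD1 0.49, HLA-DPB1 0.10, CD74 -0.44, RPL8 -0.059, CD27 0.055, ITM2C -0.17, IKZF3 0.13, NSD2 -0.051, BACH2 -0.25, COL1A1 -0.074 and PRSS2 0.20. With 18S they were IKBKE -0.030 and CD27 0.017, with poly-A spike-ins RIGI -0.12, SAMHD1 0.017, CD27 0.023 and NSD2 -0.012, and with array weights RIGI -0.041 and CD27 0.025. The mean of probe sets turned RIGI (-0.14), SAMHD1 (0.21), COX5A (0.14), RPS19 (0.079) and IKZF3 (0.42), and plain probe sets SAMHD1 (0.10), COX5A (0.54) and NSD2 (-0.52). Leaving out an array gave both signs for RIGI (-0.039 to 0.14), SAMHD1 (-0.073 to 0.00086), TLR9 (-0.21 to 0.014) and CD27 (-0.051 to 0.041). The cause was not tested.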

Other observations

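Gene families chosen after values were seen add to the picture, and carry no test as lists. Aminoacyl-tRNA synthetases, which charge transfer RNAs with amino acids, were called in both directions, and the cytosolic and mitochondrial sets were not tested against each other. Of 17 cytosolic enzymes 11 were lower and 5 higher in shGFP (limma, adjusted p under 0.05), with a median of -0.30. WARS1 differed by -2.23 and SARS1 by -1.58, and both are among the 5 synthetases already counted as ATF4 targets. FARSA was higher by 1.37 and KARS1 by 0.91. Of 15 mitochondrial enzymes 11 were higher and 2 lower, with a median of 0.49, and MARS2, SARS2 and CARS2 were higher by 1.19, 1.06 and 1.06, with another CARS2 probe set at 0.15.

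Circadian clock genes were lower in shGFP in 11 of 14 cases and higher in 0, with a median of -0.60. NR1D2, the repressor REV-ERB beta, read 5.39, 5.41 and 5.45 in shGFP and 8.69, 8.88 and 8.74 in cel-miR-67 (10.2-fold lower), with another probe set at -1.12. TEF, PER2 and CRY2 differed by -1.71, -0.90 and -0.52, with another TEF probe set at 0.18, and the core activator BMAL1 was not called at -0.08. Among ID genes and feedback genes of bone morphogenetic protein signalling 4 of 11 were higher and 2 lower. ID1 and ID2 were higher by 4.97 and 2.43, ID3 differed by -0.87 and ID4 was not called at 0.18. Fc receptor-like genes of B cells went both ways, with FCRL2 and FCRL3 higher by 3.59 (another probe set 0.18) and 2.21, FCRLA and FCRLB lower (-3.73 and -0.60) and FCRL5 not called at 0.05, with another probe set at 1.33. The cel-miR-67 mean of FCRL3, 4.17, was under the filter level, so its difference has no exact size.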
